A study of Mus musculus with 6 samples.

Results

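The colony-stimulating factor (CSF) axis was examined in lesions of the mouse cortex as 6 genes of the 32285 features counted: the ligands Csf1 and Il34 and the receptor genes Csf1r, Csf2ra, Csf2rb and Csf3r. The rule that names them uses no measured value, and all 6 were present in every library. Nuclei were sorted on DAPI, a DNA dye, from dissected photothrombotic lesions, in which a light-activated dye closes vessels, and sequenced as 6 single-nucleus libraries. As 1 male and 1 female mouse went into each library and each group had 1 library, no test between groups was made. The nuclei of the 2 mice of a library were told apart by sex-linked transcripts, and their values are given side by side, so that a difference between mice cannot be told apart from one between sexes. Nuclei with an Xist UMI and no Y-linked UMI counted as female, and the reverse as male. How many were wrongly assigned, such as through stray RNA, was not measured. Between 1348 and 2919 nuclei per library showed neither or both signals. These count in the class values but in no mouse value, so both mouse values can lie below or above that of the class.

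All 6 libraries came from lesioned brain. The Ctrl libraries, collected at 7 and 21 days post injury (dpi), were wild type (WT) with no treatment named. Whether these mice received tamoxifen was not stated for these libraries. The ADWA11 libraries, also at 7 and 21 dpi, came from WT mice given ADWA11 from the day of injury, an antibody against the integrin αvβ8, which releases active TGFβ from its latent form. The conditional knockout libraries (cKO, shown as Tgfbr2-cKO in the plots) of the same days carried Col1a2(creER) and Tgfbr2(flox), and tamoxifen was given to these mice before the injury and onward, so that the TGFβ receptor gene Tgfbr2 was deleted in cells that expressed Col1a2. The Col1a2 driver marks fibroblasts but may act in any cell that uses this promoter, and no injured Cre-negative flox library or isotype antibody library was analysed here. Mouse age was not given in the labels. Dissection took only the lesion, so the amount of neighbouring tissue could differ between libraries.

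CSF1 and IL-34 are separate proteins that bind the same receptor, CSF1R, a tyrosine kinase on which microglia and most tissue macrophages depend for survival. In the healthy brain IL-34 is known as a product of neurons and CSF1 as a product of glia. CSF2RA is the ligand-binding chain of the receptor for GM-CSF, CSF2RB is the signalling chain that this receptor shares with those for IL-3 and IL-5, and CSF3R is the receptor for G-CSF, the main growth factor of neutrophils.

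Positions are those of the GENCODE M21 annotation on GRCm38, the assembly called mm10. Csf1 (ENSMUSG00000014599) spans chr3:107741048-107760469 on the minus strand and Il34 (ENSMUSG00000031750) spans chr8:110741829-110805924 on the minus strand. Csf2ra (ENSMUSG00000059326) lies at chr19:61223957-61228429 on the minus strand, Csf2rb (ENSMUSG00000071713) at chr15:78325752-78353847 on the plus strand and Csf3r (ENSMUSG00000028859) at chr4:126024550-126044440 on the plus strand. Csf2rb has a near-identical neighbour, Csf2rb2, at chr15:78282507-78305721, so the split of UMIs between those genes is uncertain. Il34 overlaps the antisense genes Gm15894 and Gm15895, and Csf1r (ENSMUSG00000024621), whose position is not given here, overlaps Hmgxb3 on the opposite strand.

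The RefSeq promoter table used here, on GRCm38.p6, matched 3 of the 6 members, with no sequence shown for Il34, Csf1r and Csf2rb. The 250 bases before each RefSeq start are shown because Csf2ra and Csf3r were highest in myeloid nuclei and neutrophils and Csf1 was spread over many classes. Capitals mark GAGGAA or its reverse complement TTCCTC, the core letters of sites that PU.1, a transcription factor of the myeloid lineage, is known to bind. Each sequence runs 5′ to 3′ on the strand of its gene.
Csf1, chr3:107760470-107760719, minus strand: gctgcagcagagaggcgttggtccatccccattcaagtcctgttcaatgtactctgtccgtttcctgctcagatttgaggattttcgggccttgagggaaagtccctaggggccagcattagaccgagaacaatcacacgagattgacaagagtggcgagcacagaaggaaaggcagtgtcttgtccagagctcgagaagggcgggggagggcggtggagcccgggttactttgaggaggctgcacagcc
Csf2ra, chr19:61228419-61228668, minus strand: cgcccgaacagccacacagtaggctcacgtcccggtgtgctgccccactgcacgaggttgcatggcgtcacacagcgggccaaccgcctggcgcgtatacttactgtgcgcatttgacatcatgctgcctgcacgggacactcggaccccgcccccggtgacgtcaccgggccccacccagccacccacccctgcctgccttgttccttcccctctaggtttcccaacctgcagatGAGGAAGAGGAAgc
Csf3r, chr4:126024409-126024658, plus strand: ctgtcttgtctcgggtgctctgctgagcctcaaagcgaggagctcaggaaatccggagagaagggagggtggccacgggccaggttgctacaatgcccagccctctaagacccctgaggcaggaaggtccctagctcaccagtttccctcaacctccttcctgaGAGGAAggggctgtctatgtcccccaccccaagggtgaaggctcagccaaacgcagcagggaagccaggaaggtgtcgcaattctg
The Csf1 window held 0 matches, the Csf2ra window 2 adjacent matches that share no base and the Csf3r window 1 match. RefSeq and GENCODE starts differ for Csf2ra and Csf3r. By the GENCODE positions above, the Csf3r match lies inside its gene, 1 Csf2ra match lies inside its gene and the other crosses the start. Of 32817 windows of the same length before RefSeq starts, 7631 (23.3%) held the letters on either strand, so a match is a description of the letters and not of a bound site.

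The libraries held 7205 to 14246 barcodes and 64798965 to 140310354 UMIs, and 61917 of 67360 barcodes passed the filter on UMIs, genes and mitochondrial share. Nuclei were clustered without the 6 members or their pathway genes and named from marker genes. The myeloid class held 24008 nuclei (2212 to 6095 per library) and the fibroblast class 12855 (332 to 4338 per library). Class makeup differed strongly between libraries: excitatory neurons were 36.3% of nuclei in cKO at 7 dpi, 6.91% in cKO at 21 dpi and at most 0.675% in the other 4. Pairs of libraries shared 21 to 61 barcodes, at most 0.513% of the smaller library. A further fibroblast sub-cluster of 4153 nuclei raised all 8 myeloid markers and was left out of the fibroblast class. Tgfbr2 counts in fibroblasts, which cover the whole gene and not the deleted exons alone, were 318, 244 and 234 CPM in Ctrl, ADWA11 and cKO at 7 dpi, and those at 21 dpi were 222, 193 and 185 CPM. Tgfbr2 was thus lower than Ctrl by a log2 ratio of -0.44 (-0.58 to -0.31) and -0.27 (-0.35 to -0.18) in cKO, and of -0.38 and -0.20 in ADWA11, so these counts did not set the deleted libraries apart.

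Levels are given as CPM, counts per 1000000 non-mitochondrial UMIs of the class, with exact Poisson 95% intervals. Ratios are log2 ratios of CPM with exact conditional binomial 95% intervals in brackets. Both kinds of interval cover counting error alone and not the spread between mice. A ratio is called past the fold when it reached 1.5-fold with at least 50 UMIs in the compared libraries together.

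The ligands and receptors had different carriers. Csf1 was detected in nearly every class of the lesion, with myeloid nuclei, oligodendrocytes, neutrophils, astrocytes and fibroblasts all contributing UMIs. Il34 was concentrated in mural cells, the pericytes and smooth muscle cells of vessels, and was present at lower levels in fibroblasts and neurons. Myeloid nuclei held 63.1 to 91.3% of the UMIs of each of the 4 receptor genes in a library, except for Csf2ra in cKO at 7 dpi, where they held 29.9% and excitatory and inhibitory neurons 39.6% and 23.0%. Csf3r was also very high in neutrophils.

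Csf1, pooled over the 6 libraries, stood at 629 CPM in neutrophils (358 UMIs, 307 nuclei), 151 CPM in oligodendrocytes, 125 CPM in myeloid nuclei, 75.0 CPM in astrocytes, 55.5 CPM in endothelial nuclei and 48.9 CPM in fibroblasts. Below these came T cells at 42.8, mural nuclei at 37.7, oligodendrocyte precursors at 25.0, inhibitory neurons at 8.59 and excitatory neurons at 8.49 CPM. The lowest level was 3.43 CPM in B cells, from 2 UMIs. The intervals of T cells (38.4 to 47.6 CPM) and mural nuclei (30.8 to 45.6 CPM) overlapped, as did those of both neuron classes, so counting does not resolve the order of these neighbours. The pooled order also mixes libraries, with 862 and 699 of the 1859 oligodendrocytes in cKO at 7 and 21 dpi, and at 7 dpi the myeloid level was above the oligodendrocyte level in all 3 libraries (215 against 146, 160 against 117 and 288 against 150 CPM). Myeloid RNA may sit in any of these classes. At the share of myeloid markers found in a class, it would carry 131% of the mural, 87.7% of the endothelial, 56.0% of the astrocyte, 48.9% of the excitatory neuron and 30.2% of the oligodendrocyte level of Csf1 in Ctrl at 7 dpi. In cKO at 7 dpi the same measure gave 54.3%, 98.8%, 39.0%, 86.9% and 24.5%. At 21 dpi it was 1.83 to 46.9% over these classes and libraries, so the mural and endothelial levels at 7 dpi in particular are not read as expression by those cells.

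Il34, pooled likewise, reached 680 CPM in mural nuclei (95% interval 650 to 711, 1895 UMIs, 513 nuclei). The next levels were 37.0 CPM in fibroblasts, 28.2 CPM in inhibitory neurons and 23.3 CPM in excitatory neurons. Endothelial nuclei held 13.3 CPM, astrocytes 9.80, oligodendrocytes 6.23, oligodendrocyte precursors 2.35, T cells 2.10 and myeloid nuclei 1.07 CPM. Neutrophils had 0 Il34 UMIs, which allows up to 6.49 CPM. The pooled order mixes libraries here too, since 3847 of 4393 excitatory and 2089 of 2718 inhibitory nuclei came from cKO at 7 dpi. In Ctrl at 7 dpi excitatory neurons held 48.8 and inhibitory neurons 31.9 CPM against 27.8 CPM in fibroblasts. The inhibitory level rests on 13 UMIs (17.0 to 54.6 CPM), so counting does not resolve it from the fibroblast level. The neuronal Il34 level lay between 14.5 and 31.5 CPM across the 5 neuron clusters.

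Csf1r pooled over libraries was 362 CPM in myeloid nuclei, 200 CPM in neutrophils and 88.2 CPM in T cells, against 10.3 CPM in fibroblasts and 8.93 CPM in excitatory neurons. The part of myeloid RNA in the neutrophil and T cell levels of Csf1r was not tested. Csf2rb was 390 CPM in neutrophils and 121 CPM in myeloid nuclei, against 2.78 CPM in fibroblasts. Csf2ra was 220 CPM in neutrophils and 127 CPM in myeloid nuclei, and neurons also held 28.0 CPM in the inhibitory and 20.2 CPM in the excitatory class. Csf3r was 2606 CPM in neutrophils and 249 CPM in myeloid nuclei, against 5.08 CPM in fibroblasts.

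Fibroblast counts of 3 receptors lay below the share of myeloid markers in these nuclei. The 8 myeloid markers summed in fibroblasts to 4.61 to 5.73% of their level in myeloid nuclei of the same library. By the same measure Csf1r stood at 2.22 to 3.54%, Csf2rb at 0.909 to 4.06% and Csf3r at 1.51 to 3.17%, all below that share in every library. These counts are therefore not read as fibroblast expression, but their source was not tested. The share is a sum, and single markers differed, C1qa being 4.29-fold and Mrc1 19.2-fold higher in myeloid than in all other nuclei. Csf2ra stood at 6.58 to 12.3%, above that share in all 6 libraries. Its fibroblast level at 7 dpi was 7.85 CPM in Ctrl (127 UMIs), 13.4 CPM in ADWA11 (340 UMIs) and 13.2 CPM in cKO (28 UMIs), with log2 ratios to Ctrl of 0.77 (0.47 to 1.08) and 0.75 (0.10 to 1.35), past the fold. In cKO the male nuclei did not pass, at 10.1 CPM from 9 UMIs against 8.42 CPM in Ctrl, and the female nuclei held 12.6 against 8.01 CPM. With ADWA11 female nuclei held 12.7 and male nuclei 14.6 CPM. The mixed sub-cluster held 41.6, 47.4 and 53.8 CPM of Csf2ra in Ctrl, ADWA11 and cKO at 7 dpi, and adding it to the class takes both ratios under the fold. At 21 dpi the levels were 10.9, 14.2 and 9.59 CPM, with ratios of 0.38 (0.16 to 0.61) and -0.19 (-0.56 to 0.18), under it. Neurons also held Csf2ra, and the part of neuronal RNA in these fibroblast counts was not tested.

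**Figure D1:**
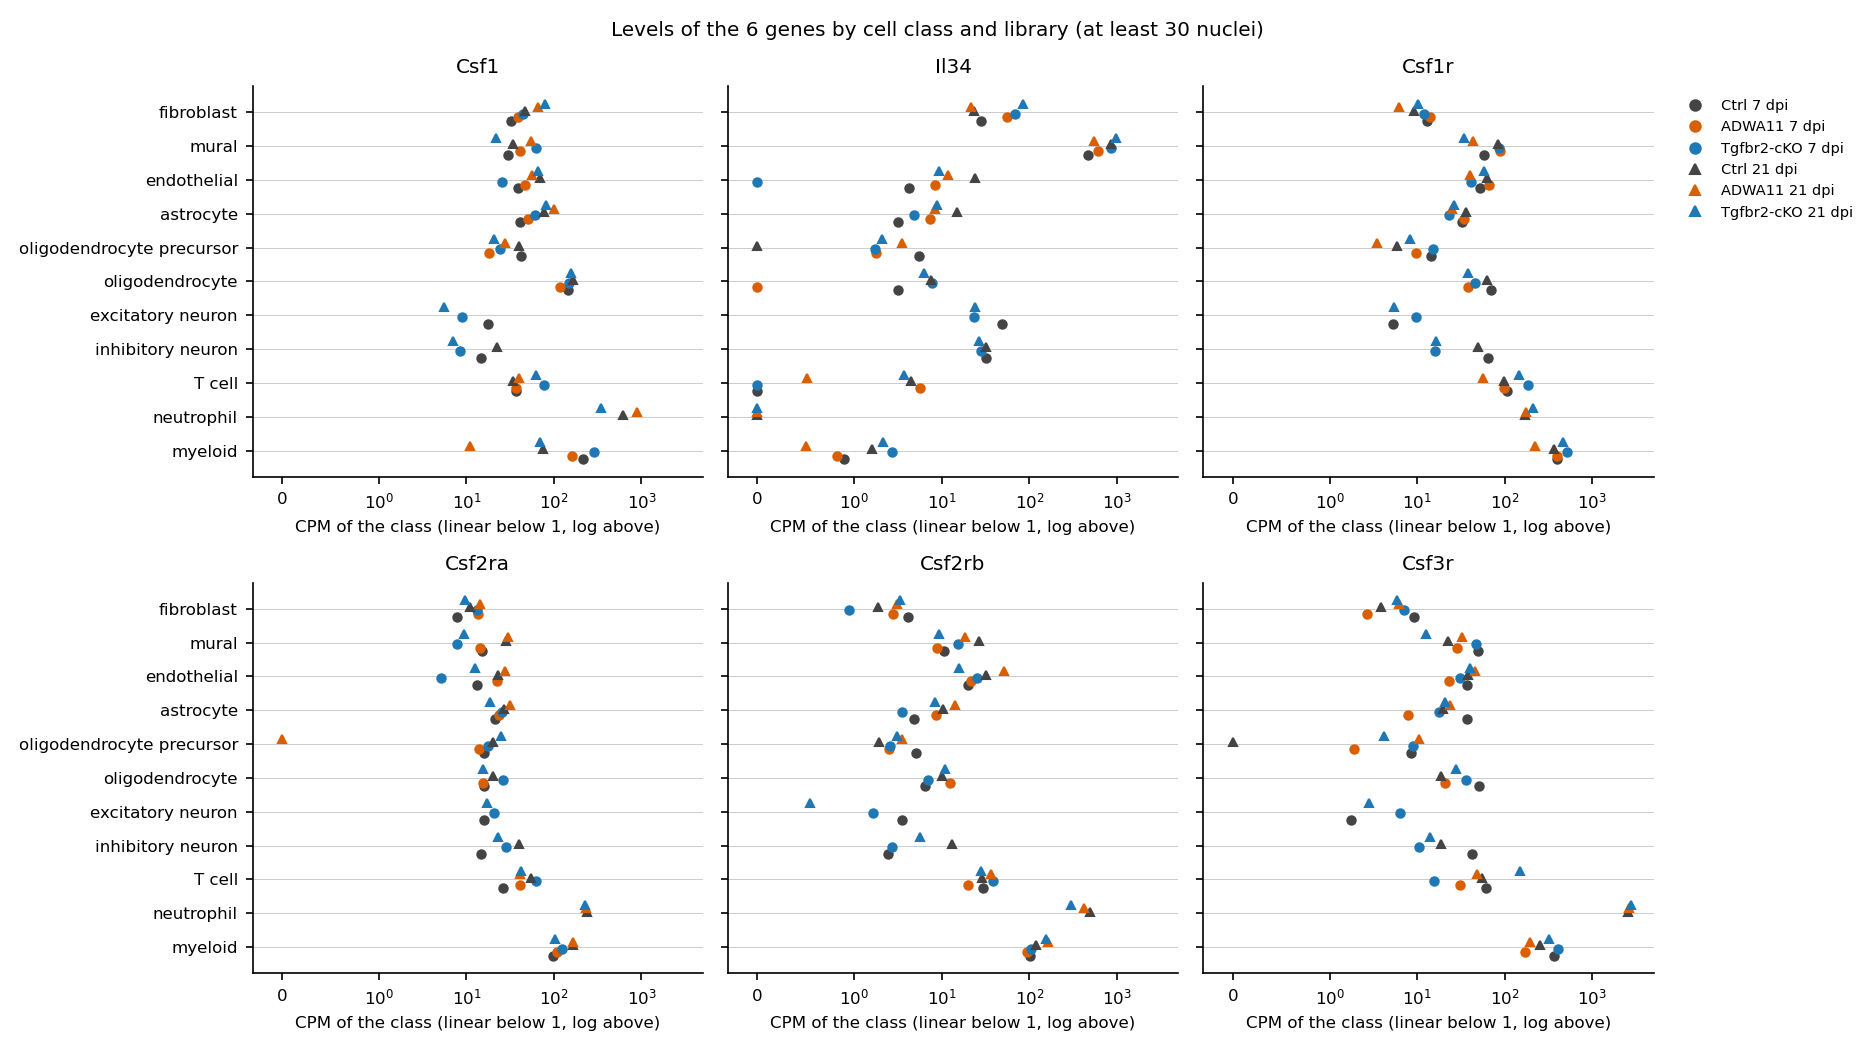
Level of each of the 6 genes by nucleus class (vertical axis) and library (points; colour for group, shape for day), in CPM of the class on a horizontal axis that is linear below 1 and logarithmic above, for class and library pairs of at least 30 nuclei. Il34 peaked in mural nuclei at 467 to 975 CPM, Csf3r in neutrophils, and the myeloid level of Csf1 spread from 11.1 to 288 CPM between libraries.

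The myeloid class was the largest source of Csf1 UMIs at 7 dpi and the fibroblast class at 21 dpi in Ctrl and ADWA11. Myeloid nuclei held 81.1% of the Csf1 UMIs of the Ctrl library at 7 dpi and 79.9% of those of ADWA11, but 26.5% and 12.4% at 21 dpi. The fibroblast share in the same order was 7.57% and 11.1% at 7 dpi, then 35.5% and 49.7% at 21 dpi. In cKO the myeloid share was 57.9% at 7 dpi and 27.3% at 21 dpi, with oligodendrocytes at 12.9% and 23.2% and fibroblasts at 2.11% and 19.4%. Astrocytes held 14.6% of Csf1 UMIs in Ctrl and 19.2% in cKO at 21 dpi. Neutrophils, with 134 nuclei, held 7.68% in ADWA11 at 21 dpi. These shares combine the number of nuclei of a class with the RNA per nucleus, which whole-library sums cannot tell apart.

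Il34 UMIs came from vessel and fibroblast nuclei except where neurons were abundant. Fibroblasts held 49.2%, 70.0%, 42.04%, 54.7% and 44.0% in Ctrl 7, ADWA11 7, Ctrl 21, ADWA11 21 and cKO 21 dpi, and 5.20% in cKO at 7 dpi. Mural nuclei held 34.0%, 16.7%, 33.5%, 26.3%, 20.3% and 3.95% in that order. In cKO at 21 dpi excitatory neurons held a further 17.0% and inhibitory neurons 6.45%. In cKO at 7 dpi, 58.0% of Il34 UMIs came from excitatory and 29.9% from inhibitory neurons.

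**Figure D2:**
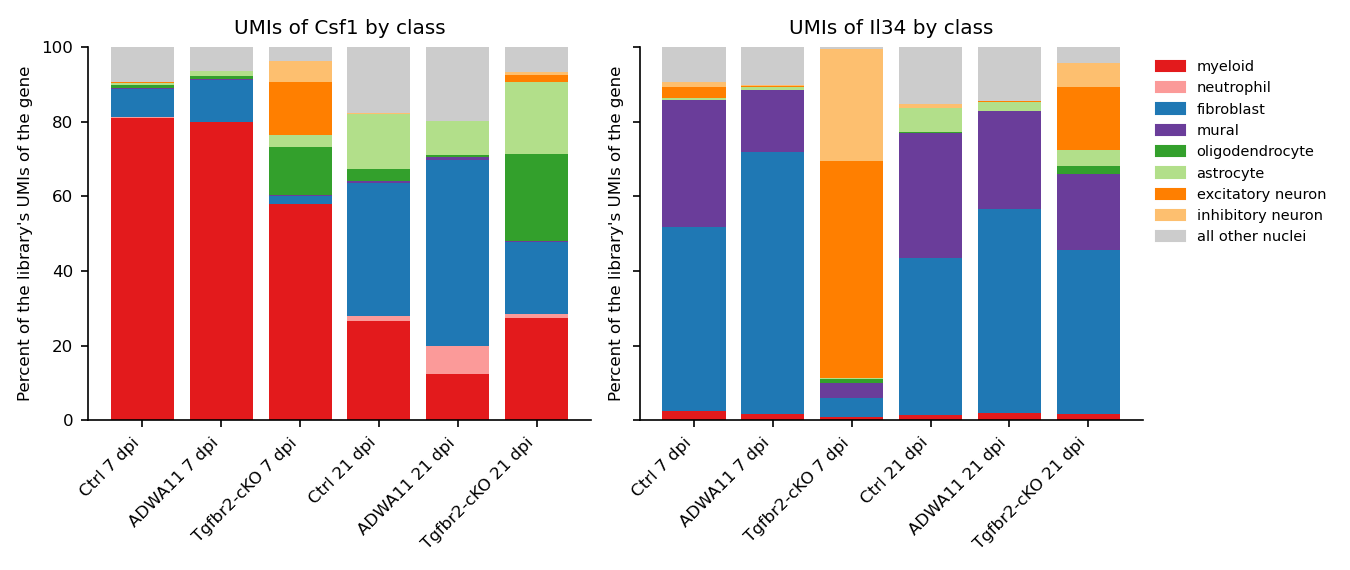
Share of the UMIs of Csf1 and Il34 held by each nucleus class (stacked bars, percent of that gene's UMIs in the library) in the 6 libraries. The myeloid part of the Csf1 bar is 81.1% in Ctrl at 7 dpi and 12.4% in ADWA11 at 21 dpi, and neurons fill most of the Il34 bar of cKO at 7 dpi.

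Whole-library sums mix the level within classes with this makeup. Csf1 was 124 CPM in Ctrl, 97.9 in ADWA11 and 36.6 in cKO at 7 dpi, and at 21 dpi 58.1, 41.5 and 60.2 CPM. The whole-library log2 ratio of Csf1 in cKO against Ctrl at 7 dpi was -1.76, but 0.79 without the neural classes and 0.41 with each class weighted as in Ctrl. With ADWA11 at 7 dpi the same weighting left it near its measured value, at -0.37 and -0.34. For this reason the comparisons below were made within classes.

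Csf1 in myeloid nuclei was lower at 21 than at 7 dpi in all 3 groups, and lowest of all with ADWA11 at 21 dpi. At 7 dpi the myeloid Csf1 level was 215 CPM in Ctrl (210 to 221, 5540 UMIs), 160 CPM in ADWA11 (156 to 164, 7179 UMIs) and 288 CPM in cKO (277 to 299, 2553 UMIs). The 21 dpi level was 74.4 CPM in Ctrl (70.0 to 79.0, 1071 UMIs), 11.1 CPM in ADWA11 (10.0 to 12.3, 378 UMIs) and 69.0 CPM in cKO (64.5 to 73.7, 879 UMIs). The 3 libraries at 7 dpi all lay above the 3 at 21 dpi, and the ADWA11 library at 21 dpi stood apart from the other two of its day, whose intervals overlapped.

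The nuclei behind these sums were not the same sub-clusters in each library. Sub-clusters 2 (led by Dach1 and Myo1d; 1688 nuclei) and 6 (microglia-like; 1088) held most myeloid nuclei of Ctrl at 7 dpi, and sub-cluster 3 (led by Hpgd; 2559) those of ADWA11 at 7 dpi. Sub-cluster 0 held 1666 of the 2295 nuclei of cKO at 7 dpi and 1394 of 2212 at 21 dpi. In Ctrl at 21 dpi sub-clusters 0 (1123) and 2 (1028) were largest, and in ADWA11 at 21 dpi the Fabp4 macrophage-like sub-cluster 1 (3707 of 6095). Sub-cluster 0 raised all 6 microglial markers but had the neuronal genes Nrg3 and Syt1 among its leading genes, so it was left unnamed and class ratios are also given without it. Sub-cluster 2 raised 3 fibroblast markers, had Itgbl1 and Col8a1 among its leading genes and held 5.91% called doublets. No class ratio without sub-cluster 2 was made. The 5 neuron markers summed in myeloid nuclei to 40.6, 31.1 and 560 CPM in Ctrl, ADWA11 and cKO at 7 dpi and at 21 dpi to 57.9, 19.0 and 193 CPM, and the 8 fibroblast markers to 603, 330, 46.5, 970, 504 and 61.5 CPM. The part of these other RNAs in the myeloid ratios was not tested.

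**Figure D3:**
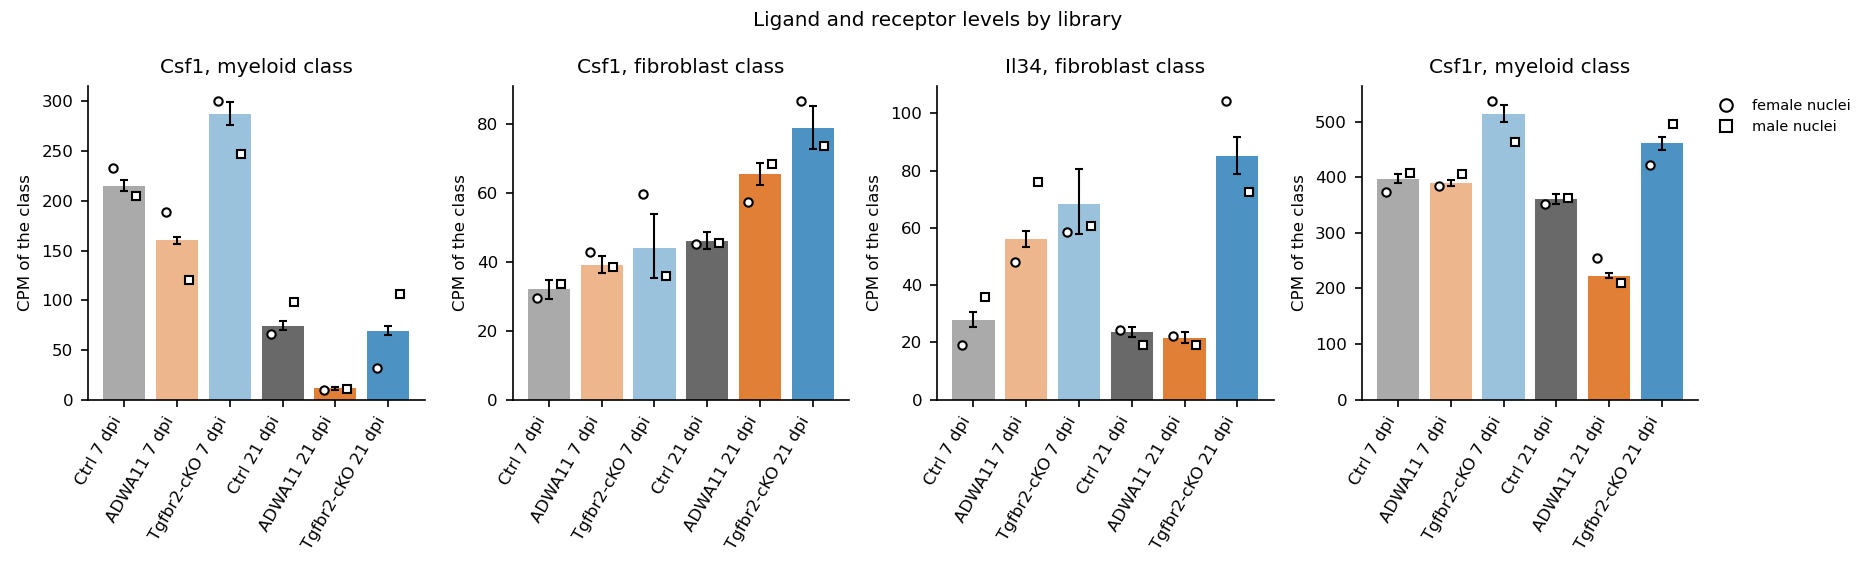
Level in CPM (linear axis from 0) of Csf1 in myeloid nuclei, Csf1 in fibroblasts, Il34 in fibroblasts and Csf1r in myeloid nuclei in the 6 libraries. Bars are all nuclei of the class with exact Poisson 95% intervals, circles the nuclei of the female mouse and squares those of the male mouse. Myeloid Csf1 was 11.1 CPM in ADWA11 at 21 dpi and at least 69.0 CPM elsewhere.

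From 7 to 21 dpi, myeloid Csf1 was lower by a log2 ratio of -1.53 (-1.63 to -1.44) in Ctrl, -3.85 (-4.00 to -3.70) in ADWA11 and -2.06 (-2.17 to -1.95) in cKO. Without sub-cluster 0 these ratios were -1.95, -3.90 and -1.91. Within sub-clusters of at least 30 nuclei in both libraries and 50 UMIs, Csf1 was past the fold lower at 21 dpi in 5 of 6 in Ctrl, in 8 of 8 in ADWA11 and in 2 of 2 in cKO. The exception in Ctrl was sub-cluster 3, at 19.0 CPM on 7 dpi and 69.2 CPM on 21 dpi. Both mice showed the direction: in the nuclei of the female mouse Csf1 went from 233 to 65.5 CPM in Ctrl, 189 to 10.1 CPM in ADWA11 and 301 to 31.7 CPM in cKO, and in those of the male mouse from 205 to 98.0, 120 to 10.7 and 247 to 106 CPM.

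ADWA11 went with less myeloid Csf1 than Ctrl at 21 dpi, with a log2 ratio of -2.74 (-2.91 to -2.57), 6.68-fold. The ratio was -2.70 in the female and -3.19 in the male nuclei and -2.01 without sub-cluster 0. Csf1 was past the fold lower in 4 of the 5 sub-clusters with enough nuclei and UMIs. In sub-cluster 2, Csf1 was higher, at 88.7 against 48.6 CPM, and in sub-cluster 1 it was 8.25 against 15.9 CPM, the low level of the sub-cluster that held most ADWA11 nuclei. At 7 dpi the ratio of ADWA11 to Ctrl was -0.43 (-0.48 to -0.38), under the fold, and -0.07 without sub-cluster 0. Of 7 sub-clusters at that day Csf1 was past the fold higher in 2, sub-clusters 2 (353 against 160 CPM) and 3 (154 against 19.0 CPM), and lower in 3.

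cKO did not differ from Ctrl by the fold in myeloid Csf1 at either day. The log2 ratio was 0.42 (0.35 to 0.49) at 7 dpi and -0.11 (-0.24 to 0.02) at 21 dpi. Without sub-cluster 0 it was 0.33 and 0.37. Within sub-clusters at 7 dpi, Csf1 was past the fold lower in 3 of 4: sub-cluster 0 (326 against 500 CPM), sub-cluster 2 (91.3 against 160 CPM) and sub-cluster 9 (55.9 against 234 CPM). The exception was the cycling sub-cluster 5, at 413 against 301 CPM. The class ratio and those of these 3 sub-clusters thus had opposite signs. At 21 dpi the mice differed, with a log2 ratio of -1.05 in female and 0.11 in male nuclei.

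**Figure D4:**
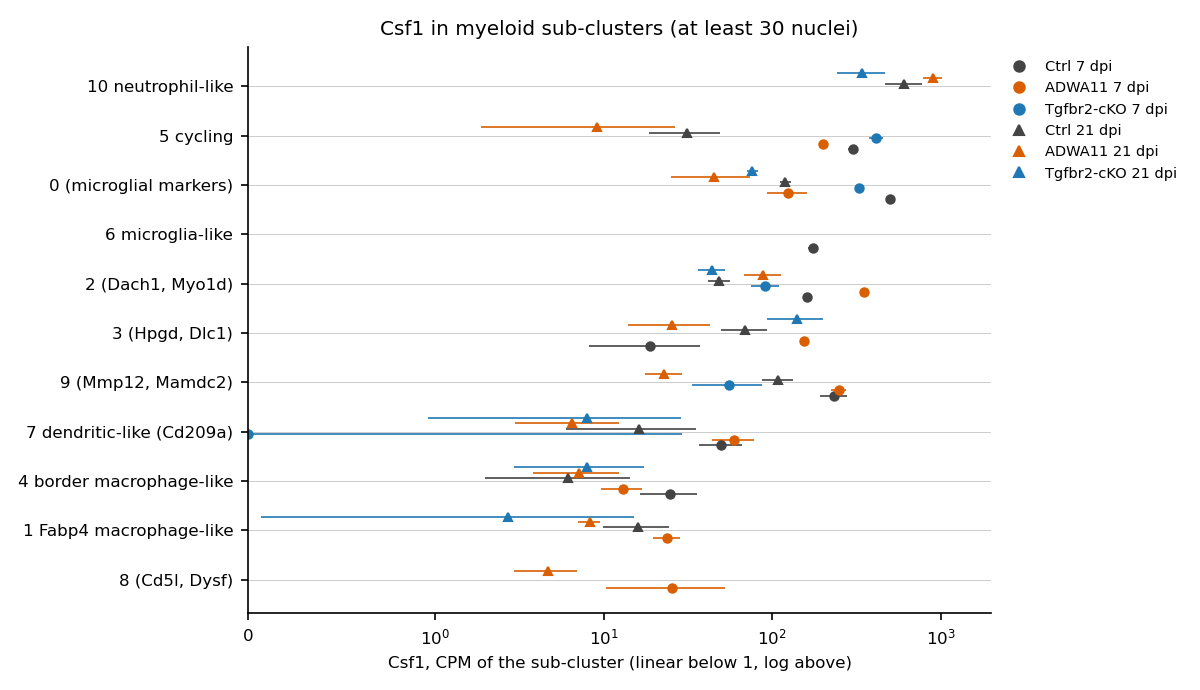
Level of Csf1 in CPM (log axis) in each myeloid sub-cluster with at least 30 nuclei, by library, with exact Poisson 95% intervals. Sub-cluster 0 of Ctrl at 7 dpi held 500 CPM, and border macrophage-like nuclei (sub-cluster 4) held 6.12 to 24.8 CPM in every library shown.

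Sub-clusters differed in Csf1 beyond the day. Border macrophage-like nuclei, macrophages of meninges and vessels marked by Cd163 and Cbr2, held 24.8, 12.96, 6.12, 7.18 and 8.002 CPM in Ctrl 7, ADWA11 7, Ctrl 21, ADWA11 21 and cKO 21 dpi. Microglia-like nuclei of Ctrl at 7 dpi held 174 CPM and cycling nuclei 301, 199 and 413 CPM in Ctrl, ADWA11 and cKO at 7 dpi. Dendritic-like nuclei of sub-cluster 7 held 49.95 and 59.3 CPM in Ctrl and ADWA11 at 7 dpi and 6.50 to 16.2 CPM at 21 dpi.

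The share of myeloid nuclei with a Csf1 UMI, with each nucleus thinned to 3000 UMIs, was 21.4% in Ctrl, 13.7% in ADWA11 and 28.6% in cKO at 7 dpi. At 21 dpi it was 11.9%, 2.36% and 10.5%. The thinning left out 839, 503 and 980 shallower nuclei at 7 dpi and 918, 961 and 396 at 21 dpi, and the unthinned shares were 27.7%, 20.04%, 28.5%, 15.0%, 3.81% and 14.6%. The shares gave the same order of libraries as the CPM at 7 dpi and again the lowest value in ADWA11 at 21 dpi. In excitatory neurons of cKO at 7 dpi, a class with one of the lowest Csf1 levels, 9.05% of nuclei held a UMI at a median depth of 17165 UMIs, against 3355 UMIs in the myeloid nuclei of that library.

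In fibroblasts Csf1 was higher at 21 dpi than at 7 dpi, the direction opposite to the myeloid class. Csf1 was 32.0 CPM in Ctrl (517 UMIs), 39.2 CPM in ADWA11 (994 UMIs) and 43.9 CPM in cKO (93 UMIs) at 7 dpi. It was 46.1 CPM (1436 UMIs), 65.4 CPM (1521 UMIs) and 78.8 CPM (624 UMIs) at 21 dpi. Every library at 21 dpi lay above every library at 7 dpi, although the interval of cKO at 7 dpi, 35.4 to 53.8 CPM, covered the Ctrl level of 21 dpi. This order did not hold for single mice: female nuclei of cKO at 7 dpi held 59.8 CPM, against 45.1 and 57.3 CPM in female nuclei of Ctrl and ADWA11 at 21 dpi. Within each library pair both sexes were higher at 21 dpi, female nuclei at 29.4 and 45.1 CPM in Ctrl, 42.9 and 57.3 in ADWA11 and 59.8 and 86.7 in cKO, and male nuclei at 33.7 and 45.4, 38.5 and 68.3, and 35.9 and 73.8 CPM. The log2 ratio of 21 to 7 dpi was 0.53 (0.38 to 0.68) in Ctrl, under the fold, and 0.74 (0.62 to 0.86) in ADWA11 and 0.84 (0.53 to 1.17) in cKO, past it. The sub-clusters behind these sums changed with day, sub-cluster 2 holding 1051 of 1893 Ctrl nuclei at 7 dpi and 75 of 4338 at 21 dpi, and sub-cluster 0 holding 55 and 2005. Within sub-clusters with enough nuclei and UMIs, Csf1 was higher at 21 dpi in 5 of 5 in Ctrl, past the fold in 3, in 3 of 4 in ADWA11, past it in 1, and in 2 of 2 in cKO, past it in 0. In arachnoid-like sub-cluster 3 of Ctrl it was 40.4 and 40.9 CPM. At the share of myeloid markers in fibroblasts, myeloid RNA would carry 12.3, 8.07 and 14.3 CPM of this Csf1 at 7 dpi, which is 38.6%, 20.6% and 32.5% of the level, and 0.519 to 3.43 CPM at 21 dpi. With the mixed sub-cluster added to the class the Ctrl ratio was 0.12, and the cKO ratio was no longer past the fold. By mouse, the female nuclei of both ADWA11 and cKO stayed under the fold, while the male nuclei of both passed it.

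Il34 in fibroblasts was higher than in Ctrl in both cKO libraries and with ADWA11 at 7 dpi, but not with ADWA11 at 21 dpi. At 7 dpi Il34 was 27.8 CPM in Ctrl (25.3 to 30.5, 450 UMIs), 56.1 CPM in ADWA11 (53.2 to 59.1, 1423 UMIs) and 68.4 CPM in cKO (57.7 to 80.5, 145 UMIs). The level at 21 dpi was 23.5 CPM in Ctrl (21.8 to 25.3, 732 UMIs), 21.5 CPM in ADWA11 (19.6 to 23.4, 499 UMIs) and 85.2 CPM in cKO (78.9 to 91.9, 675 UMIs). The intervals of Ctrl and ADWA11 at 21 dpi overlapped, and those of the 3 libraries above Ctrl lay clear of every Ctrl interval.

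Against Ctrl, fibroblast Il34 in cKO had a log2 ratio of 1.30 (1.02 to 1.57) at 7 dpi and 1.86 (1.71 to 2.01) at 21 dpi. With ADWA11 the ratio was 1.01 (0.86 to 1.17) at 7 dpi and -0.13 (-0.30 to 0.04) at 21 dpi. Both mice of each of these libraries showed the direction: female nuclei held 58.6 and 104 CPM in cKO at 7 and 21 dpi against 18.9 and 24.4 CPM in Ctrl, and male nuclei 60.6 and 72.7 CPM against 35.9 and 19.0 CPM. With ADWA11 at 7 dpi, female nuclei held 48.1 and male nuclei 76.0 CPM. The cKO ratio at 7 dpi rests on 332 fibroblast nuclei. The part of mural or neuronal RNA in these fibroblast counts of Il34 was not tested.

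Fibroblast sub-clusters differed in Il34 by more than 10-fold, and their numbers of nuclei differed between libraries. Sub-cluster 5, leptomeningeal-like by markers such as Lama1 and Aldh1a2, held the highest Il34 of the fibroblasts in every library, with 71.2, 164 and 146 CPM in Ctrl, ADWA11 and cKO at 7 dpi and at 21 dpi 253, 273 and 331 CPM. Sub-cluster 3, arachnoid-like, held 38.0, 45.1 and 54.9 CPM at 7 dpi and 28.5, 22.3 and 90.6 CPM at 21 dpi. Sub-cluster 0, led by Slc47a1, held 6.49 and 5.72 CPM in Ctrl and ADWA11 at 7 dpi and 9.46, 10.5 and 10.3 CPM at 21 dpi. Sub-clusters 0 and 4 held 2005 and 1402 of the 4338 Ctrl fibroblasts at 21 dpi, and sub-cluster 0 held 2291 of 2919 in ADWA11, against 93 of 887 in cKO, in which sub-clusters 3 (396) and 6 (316, led by Ebf3 and Gabrg3) were largest.

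Within each sub-cluster with enough UMIs, Il34 was higher in cKO than in Ctrl, by less than in the class. At 7 dpi it was past the fold higher in 2 of 2, with log2 ratios of 0.81 (0.14 to 1.44) in sub-cluster 2 and 1.04 (0.68 to 1.39) in sub-cluster 5. Sub-cluster 2, led by Spock3 and Slc22a22, raised 5 of the 6 myofibroblast markers but was left unnamed by the naming rule. At 21 dpi it was higher in 3 of 3 and past the fold in 1, with 1.67 (1.35 to 2.00) in sub-cluster 3, 0.39 (0.11 to 0.66) in sub-cluster 5 and 0.13 (-1.03 to 1.09) in sub-cluster 0. Sub-cluster 6, which was nearly confined to cKO at 21 dpi with 316 of its 335 nuclei there, held 62.9 CPM of Il34 and 103 CPM of Csf1. It also raised 3 mural, 3 astrocyte, 3 oligodendrocyte and 2 neuron markers, and no class ratio without it was made. With ADWA11 at 7 dpi Il34 was higher in 4 of 4 sub-clusters and past the fold in 3, among them sub-cluster 5 at 1.20 (0.98 to 1.42).

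With day, class and sub-cluster again differed in Il34. The fibroblast class had a log2 ratio of 21 to 7 dpi of -0.24 (-0.42 to -0.07) in Ctrl, -1.39 (-1.54 to -1.24) in ADWA11 and 0.32 (0.06 to 0.59) in cKO. In leptomeningeal-like sub-cluster 5 Il34 was higher at 21 dpi in all 3 groups, by 1.83 (1.58 to 2.08), 0.74 (0.50 to 0.96) and 1.18 (0.81 to 1.56). That sub-cluster held 429, 389 and 114 nuclei at 7 dpi and 225, 116 and 78 at 21 dpi. The mice of the Ctrl libraries disagreed on the class ratio, which was 0.36 in female and -0.92 in male nuclei.

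Csf1 varied less between fibroblast sub-clusters. It was past the fold higher in cKO at 21 dpi in the class (0.77, 0.63 to 0.91) and in 1 of 3 sub-clusters, sub-cluster 3, at 61.6 against 40.9 CPM. In sub-cluster 0 it was 59.7 against 43.0 CPM and in sub-cluster 5 62.7 against 63.6 CPM. With ADWA11 at 21 dpi Csf1 was higher than Ctrl in 4 of 4 sub-clusters, past the fold in 2, and the class ratio was 0.51 (0.40 to 0.61).

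Il34 was higher in mural nuclei than in any other class in each library. It was 467 CPM in Ctrl (311 UMIs), 603 CPM in ADWA11 (339 UMIs) and 849 CPM in cKO (110 UMIs) at 7 dpi, and 864 (583 UMIs), 551 (240 UMIs) and 975 CPM (312 UMIs) at 21 dpi, from 40 to 154 nuclei per library. The mural class raised its own markers, such as Rgs5 at 1283 CPM against 5.75 CPM in other nuclei. Il34 in cKO against Ctrl had a log2 ratio of 0.86 (0.54 to 1.18) at 7 dpi and 0.17 (-0.03 to 0.38) at 21 dpi. With ADWA11 it was 0.37 (0.14 to 0.60) at 7 dpi and -0.65 (-0.87 to -0.43) at 21 dpi. The Ctrl level was higher at 21 than at 7 dpi by 0.89 (0.69 to 1.09). The mice of a library could lie far apart, at 394 CPM in female and 1090 CPM in male nuclei with ADWA11 at 7 dpi, so the ADWA11 ratio at that day is within the spread between mice. Female and male nuclei held 424 and 396 CPM in Ctrl at 7 dpi, below the 928 and 913 CPM of cKO at 7 dpi and below the 1040 and 852 CPM of Ctrl at 21 dpi. These values come from 10 to 65 nuclei per mouse.

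Neuronal Il34 varied little where neurons were numerous. Excitatory neurons held 23.1 CPM (1617 UMIs, 3847 nuclei) in cKO at 7 dpi and 23.6 CPM (261 UMIs, 455 nuclei) at 21 dpi, and inhibitory neurons 28.3 and 26.6 CPM. The Ctrl library at 7 dpi gave 48.8 CPM from 28 UMIs in 56 excitatory nuclei and 31.9 CPM from 13 UMIs in 80 inhibitory nuclei. In Ctrl at 21 dpi 175 inhibitory nuclei gave 32.0 CPM (18.6 to 51.2, 17 UMIs). The other neuron classes held 3 to 18 nuclei in a library, too few for a level. Il34 in astrocytes was 3.17 to 14.7 CPM.

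Among glia, counting did not resolve the libraries in oligodendrocyte Csf1. It was 146, 117 and 150 CPM in Ctrl, ADWA11 and cKO at 7 dpi and at 21 dpi 166, 135 and 155 CPM, from 23 to 862 nuclei per library, and the Poisson intervals of all 6 libraries overlapped. Astrocytes, which take up a reactive state around lesions, held 40.4, 50.8 and 61.5 CPM at 7 dpi and 77.7, 99.4 and 81.1 CPM at 21 dpi. Astrocyte Csf1 was thus higher at 21 dpi in all 3 groups, by 0.94 (0.53 to 1.38) in Ctrl and 0.97 (0.66 to 1.28) in ADWA11, past the fold, and by 0.40 in cKO, under it. The myeloid marker share would carry 56.0%, 32.8% and 39.0% of the astrocyte level at 7 dpi and 11.9%, 1.83% and 6.83% at 21 dpi, in the order Ctrl, ADWA11 and cKO, and its part in these ratios was not tested. Oligodendrocyte precursors held 18.2 to 41.99 CPM. In neutrophils Csf1 was 610, 900 and 342 CPM in Ctrl, ADWA11 and cKO at 21 dpi, from 58, 134 and 68 nuclei, and the 7 dpi libraries had 7 to 25 neutrophil nuclei and 4 to 8 UMIs each.

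Csf1r in myeloid nuclei changed less than Csf1 between days and with ADWA11, but not in cKO at 21 dpi. It was 397 CPM in Ctrl, 390 in ADWA11 and 514 in cKO at 7 dpi, and at 21 dpi 361, 223 and 461 CPM, from 4562 to 17463 UMIs. The ADWA11 library at 21 dpi was lowest and both cKO libraries were highest of their day. ADWA11 at 21 dpi had a log2 ratio to Ctrl of -0.69 (-0.75 to -0.64), past the fold, with 256 CPM in female and 210 CPM in male nuclei against 353 and 363 CPM, and -0.49 without sub-cluster 0. cKO was higher than Ctrl by 0.37 (0.32 to 0.42) at 7 dpi and 0.35 (0.30 to 0.41) at 21 dpi, under the fold. Without sub-cluster 0 those ratios were -0.22 and 0.15, so the sign at 7 dpi rests on that sub-cluster.

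Pooled Csf1r levels differed between myeloid sub-clusters, which were unevenly spread over libraries, so that sub-cluster and library cannot be fully told apart. Ctrl at 7 dpi held 1088 of the 1151 nuclei of sub-cluster 6, ADWA11 at 7 dpi 2559 of the 2920 of sub-cluster 3 and ADWA11 at 21 dpi 3707 of the 4756 of sub-cluster 1. Microglia-like nuclei held 695 CPM, border macrophage-like nuclei 570 CPM, sub-cluster 3 506 CPM and sub-cluster 0 469 CPM, pooled over libraries. Fabp4 macrophage-like nuclei held 243 CPM, dendritic-like nuclei of sub-cluster 7 218 CPM, sub-cluster 9, led by Mmp12, 152 CPM, and dendritic-like nuclei with Clec9a and Xcr1 60.9 CPM. Border macrophage-like nuclei spanned 519 to 589 CPM in the 5 libraries with 30 or more of them. In ADWA11 against Ctrl at 21 dpi Csf1r was past the fold lower in 2 of 8 sub-clusters, 0 and 9, and in no other did it pass.

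Csf2ra in myeloid nuclei was 98.5, 109 and 124 CPM in Ctrl, ADWA11 and cKO at 7 dpi and at 21 dpi 166, 165 and 103 CPM. Ctrl and ADWA11 were higher at 21 dpi, by 0.75 (0.67 to 0.83) and 0.60 (0.55 to 0.66), and cKO was not, at -0.26 (-0.38 to -0.15). cKO against Ctrl at 21 dpi was accordingly -0.69 (-0.78 to -0.59), with 84.6 and 120 CPM in female and male nuclei against 171 and 168 CPM, and -0.70 without sub-cluster 0. Csf2ra was lower in 6 of 6 sub-clusters there, past the fold in 2. In Ctrl, Csf2ra was higher at 21 than at 7 dpi in 7 of 7 sub-clusters and past the fold in 5. Sub-clusters 9 and 7 had the highest pooled Csf2ra, at 218 and 217 CPM, and border macrophage-like nuclei the lowest, at 77.7 CPM.

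Csf2rb in myeloid nuclei was 102, 93.98 and 104 CPM at 7 dpi and 119, 162 and 154 CPM at 21 dpi in the same order. The 7 dpi libraries lay within 10 CPM of each other, and at 21 dpi both ADWA11 and cKO were above Ctrl, by 0.45 (0.37 to 0.53) and 0.37 (0.27 to 0.46), under the fold. In ADWA11 it was past the fold higher at 21 than at 7 dpi, by 0.79 (0.73 to 0.85). Pooled Csf2rb was highest in dendritic-like sub-cluster 7, at 231 CPM, and lowest in cycling nuclei, at 65.0 CPM. In cKO at 21 dpi the signalling chain was thus above and the ligand-binding chain below Ctrl, while between days in Ctrl and ADWA11 both were higher at 21 dpi.

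Csf3r in myeloid nuclei was 369, 170 and 410 CPM at 7 dpi and 253, 193 and 321 CPM at 21 dpi, with the ADWA11 library lowest at both days. Against Ctrl, ADWA11 had a log2 ratio of -1.12 (-1.16 to -1.08) at 7 dpi, past the fold, and -0.39 (-0.45 to -0.33) at 21 dpi. At 7 dpi both mice showed it, at 145 and 213 CPM in female and male nuclei against 334 and 384 CPM, and Csf3r was lower in 7 of 7 sub-clusters and past the fold in 4. The microglia-like sub-cluster 6, with 1088 nuclei in Ctrl at 7 dpi and 12 in ADWA11, had the highest Csf3r of the myeloid sub-clusters, 741 CPM in that Ctrl library. With percentiles of the nucleus filter pooled over libraries the ratio was -0.61. That setting also left out, as mixed, a myeloid sub-cluster of 2233 nuclei, 1664 of them of Ctrl at 7 dpi. The 8 neutrophil markers summed to 7.18 to 21.7 CPM in myeloid nuclei, with Ly6g at 0 in all 6 libraries, while neutrophils themselves held 2497 to 2794 CPM of Csf3r in the 5 libraries with 15 or more of them.

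The members can be set against all genes. In fibroblasts, of the 6 members with enough UMIs, 3 were past the fold in cKO against Ctrl at 7 dpi (background 21.5% of genes) and 4 at 21 dpi (27.9%). With ADWA11 4 were past it at 7 dpi (18.3%) and 2 at 21 dpi (14.5%). Between days 2 of 6 were past the fold in Ctrl (33.6%), 4 of 6 in ADWA11 (32.4%) and 1 of 5 in cKO (27.0%). Of the 20 calls, 4 were of Il34, 3 of Csf1 and 13 of receptor genes, 11 of these of Csf1r, Csf2rb or Csf3r, whose counts are not read as fibroblast expression. Among the ligands, Il34 passed in cKO at both days, with ADWA11 at 7 dpi and between days in ADWA11.

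In myeloid nuclei 0 of 5 members were past the fold in cKO against Ctrl at 7 dpi (background 23.0%) and 1 of 6, Csf2ra, at 21 dpi (18.5%). With ADWA11 1 of 6, Csf3r, was past it at 7 dpi (23.3%) and 2 of 5, Csf1 and Csf1r, at 21 dpi (25.0%). Between days 2 of 5, Csf1 and Csf2ra, passed in Ctrl (24.6%), 5 of 6 in ADWA11 (29.8%) and 1 of 6, Csf1, in cKO (23.2%). In the 5 of 6 of the ADWA11 day contrast, Csf2ra and Csf2rb were higher and Csf1, Csf1r and Il34 lower at 21 dpi, the last from 54 UMIs. The other shares are near the background and are not read as results about the members.

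The other genes of the pathway were 41, in 7 lists: further ligands, further receptors, CSF1R adaptors and signalling, common beta chain signalling and feedback, transcription factors of the Csf1r-expressing lineage, growth and survival targets, and shedding of CSF1 and its receptor. In fibroblasts of cKO 10 of 30 with enough UMIs were past the fold at 7 dpi, 4 higher and 6 lower (background 21.5% of genes), and 15 of 36 at 21 dpi, 8 higher and 7 lower (27.9%). With ADWA11 8 of 33 passed at 7 dpi, 4 higher and 4 lower (18.3%), and 7 of 36 at 21 dpi, 3 higher and 4 lower (14.5%). By list, 3 of 5 further receptors were higher and 1 lower in cKO at 21 dpi (median log2 ratio 0.65, against -0.02 over all genes tested). Of 9 feedback genes 0 were higher and 3 lower there, with a median of -0.16. The 1 shedding gene, Adam17, passed in none of the 4 comparisons.

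Kitl, the ligand of the receptor KIT, had the largest ratio of the pathway genes in cKO fibroblasts. Kitl stood at 14.6, 29.2 and 71.7 CPM in Ctrl, ADWA11 and cKO at 7 dpi and at 10.8, 6.88 and 76.6 CPM at 21 dpi. Its log2 ratios to Ctrl were 2.30 (1.99 to 2.60) and 2.82 (2.63 to 3.02) in cKO and 1.00 and -0.65 with ADWA11 at 7 and 21 dpi, with the highest levels in the same libraries as fibroblast Il34. Kit was higher in cKO at 21 dpi by 1.28 (1.16 to 1.40). Pathway genes are given here for the whole class only, with no value by sub-cluster or mouse. At 21 dpi sub-clusters 3 and 6 held 396 and 316 of 887 cKO fibroblasts, against 612 and 0 of 4338 in Ctrl. Whether Kitl or Kit differed within sub-clusters was not tested. Plcg2, a phospholipase of the signalling list, was lower in all 4 comparisons with Ctrl, at -1.63 and -2.57 in cKO and -1.33 and -1.59 with ADWA11. Since fibroblast Csf1r counts are not read as expression, this is not read as CSF1R signalling in fibroblasts. The part of myeloid RNA in fibroblast Plcg2 was not tested.

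Further genes of the lists passed in fibroblasts. Runx1, a transcription factor of blood cell development, was lower at 7 dpi in cKO (-1.02, -1.14 to -0.90) and with ADWA11 (-0.96, -1.001 to -0.91), as was Inpp5d, the phosphatase SHIP1, at -0.93 and -1.23. Socs2, a feedback inhibitor of cytokine signalling, was lower at 21 dpi in cKO (-1.26) and with ADWA11 (-0.73). At 7 dpi Pim1 was lower (-1.47) in cKO, from 6 UMIs, and with ADWA11 Cish was higher (1.19) and Il3ra lower (-0.79). At 21 dpi Socs1 (-1.05) and Il5 (-1.29, from 5 UMIs) were lower in cKO, and with ADWA11 Irf8 (1.38) and Pik3cd (0.65) were higher and Il3ra (-0.65) lower. Inpp5d, Irf8 and Pik3cd are genes of blood cells, and the myeloid marker share given above applies to their fibroblast counts.

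In myeloid nuclei 6 of 34 pathway genes passed in cKO at 7 dpi (background 23.0%), 4 of 34 at 21 dpi (18.5%), 11 of 35 with ADWA11 at 7 dpi (23.3%) and 9 of 35 at 21 dpi (25.0%). The cKO counts lie below the background and the ADWA11 count at 21 dpi near it, so these counts are not read as a result about the pathway. Of the 6 lineage transcription factors, 2 were past the fold higher in cKO at 7 dpi, among them Ets2 (0.71), and 0 of the 6 passed in the other 3 comparisons. Socs3, a feedback inhibitor induced by STAT3, was higher in cKO at both days, by 1.86 (1.41 to 2.31) and 1.79 (1.43 to 2.17), and lower with ADWA11 at 7 dpi at -1.11 (-1.62 to -0.61). Its level ran from 1.38 to 19.9 CPM. Flt3, a receptor of dendritic cell progenitors, was lower at 7 dpi both in cKO (-1.31) and with ADWA11 (-1.27).

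Of the genes that signal downstream of CSF1R in myeloid nuclei, Plcg2 was lower with ADWA11 at 7 dpi (-1.22) and 21 dpi (-0.73), and Inpp5d, which limits signalling from CSF1R, was lower with it at 7 dpi (-0.82) and higher in cKO at 21 dpi (0.62). With ADWA11 at 7 dpi Kitl (1.31, 1.23 to 1.39) and Cish (0.86) were higher. With ADWA11 at 21 dpi Socs1 (2.14, from 73 against 7 UMIs) and Pim1, a kinase that STAT5 induces (1.04, 0.89 to 1.19), were higher, and Ptprz1 (-1.08), a receptor of IL-34, Socs2 (-0.92) and Ccnd1 (-0.77) were lower. In cKO Kit (-1.02) was lower and Csf2rb2 (0.70) higher at 7 dpi, and Sdc1 (-1.93), another binding partner of IL-34, was lower and Ptprz1 (0.77) higher at 21 dpi. Csf2rb, the near-identical neighbour of Csf2rb2, had a ratio of 0.03 in cKO at 7 dpi. At 21 dpi the neuron markers in myeloid nuclei summed to 57.9, 19.0 and 193 CPM in Ctrl, ADWA11 and cKO. The fibroblast markers there summed to 970, 504 and 61.5 CPM. The part of such RNA in the ratios of this paragraph, those of Ptprz1 and Sdc1 among them, was not tested.

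The genes with the most similar levels to each member were found by Pearson correlation of log2(CPM + 1) over 64 class-by-library units of at least 30 nuclei, among 18724 genes. These units share libraries and sequencing depth, so the values describe likeness only. The closest genes were Elovl1 (0.73), Rab31 (0.72) and Flcn (0.71) for Csf1 and Lgmn (0.94), Hpgds (0.93) and Myo1f (0.93) for Csf1r. Dlc1 (0.85) and Srpx2 (0.85) were among the closest for Il34. For Csf2ra they were Itgam (0.86), which is itself a naming marker, Fuca2 (0.84) and Cnr2 (0.83), for Csf2rb Slc11a1 (0.94), Skap2 (0.93) and Lyn (0.93), and for Csf3r Ncf1 (0.90), Irak2 (0.89) and Cd33 (0.89). Csf1, spread over many classes, had the weakest best match. The lists depend on the units: over 13 classes pooled over libraries the closest genes were others for every member, apart from Srpx2 for Il34.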

How the data were processed

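Single-nucleus 3′ libraries were deposited as raw counts: per the file headers the values are whole-number UMI counts per gene and barcode in filtered Cell Ranger matrices. The submitters' processing notes name Cell Ranger 7.1.0 and the file headers 7.2.0, both with mm10. The authors pooled 1 male and 1 female mouse per library, so every group has 1 library and no test between groups was made.

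Within each library nuclei in the lowest or highest 2.5% by UMI total or by detected genes were removed, together with the 2.5% richest in mitochondrial RNA, which left 61917 of 67360 barcodes. Counts were normalized with SCTransform (Seurat 5.3.0, sctransform 0.4.2, R 4.3.3; 3000 variable genes, 30 components) and clustered by Louvain at resolution 0.5, fibroblasts at 0.2, myeloid nuclei and oligodendrocyte precursors at 0.25. The 6 members and 41 pathway genes were left out of the variable genes. A cluster was named when at least 3 of its markers were detected in 5% of nuclei and raised 2-fold. Sub-clusters of fibroblasts, myeloid nuclei and oligodendrocyte precursors with at least 6 raised markers of another class were called mixed and left out of their class. Myeloid or precursor sub-clusters with that many B cell or oligodendrocyte markers were instead moved to those classes. Doublets were called by simulation (6339, at a rate set in proportion to the barcodes of a library) and were kept unless their cluster or sub-cluster was left out. The fibroblast sub-cluster left out as mixed held 36.3% called doublets, at a median of 2099 UMIs.

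For each class, the counts of its nuclei were added up within a library and scaled to 1000000 non-mitochondrial UMIs (CPM), with Python 3.11.15 and scipy 1.17.1. Depth was 64798965 to 140310354 UMIs per library. Past the fold means at least 1.5-fold with at least 50 UMIs; a ratio against 0 UMIs was bounded at 3 UMIs. Intervals cover counting error only. The sex of a nucleus was read from Xist and Y-linked UMIs of these mice. The script was tested on simulated data. Alternatives were TMM scaling (edgeR 4.0.16), other clusterings, filters and weightings, and each sex alone. Named genes were the 6 members, at most 6 pathway genes past the fold per comparison by size, and the 3 genes most like each member; a few genes that this rule names are not reported here. The members and lists were chosen with earlier results of these data known, and details of the naming of clusters were set after the clusters were seen. No other column of values was left unused.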

Additional observations from a re-analysis of the deposited data

Results flagged for a closer look

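Among the member ratios past the fold, 8 pointed in opposite directions under the same contrast at different days or in different groups, and the differences themselves were not tested. Ratios under the fold that changed sign are not counted among them. All 8 concern fibroblast counts of Csf2rb and Csf3r, which lay below the share of myeloid markers in fibroblasts. Csf2rb, the shared signalling chain, had a log2 ratio to Ctrl of -2.13 at 7 dpi, from 2 UMIs, and 0.82 at 21 dpi in cKO, and of -0.59 and 0.73 with ADWA11. Csf3r, the G-CSF receptor, had a ratio of ADWA11 to Ctrl of -1.80 at 7 dpi and 0.68 at 21 dpi. Between 7 and 21 dpi its ratio was -1.27 in Ctrl and 1.21 in ADWA11. At 7 dpi, fibroblast Csf3r stood at 9.21 CPM in Ctrl, 2.64 in ADWA11 and 7.08 in cKO. Its values at 21 dpi were 3.82, 6.11 and 5.81 CPM in that order, while the 8 myeloid markers summed there to 119, 132 and 135 CPM.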

How the results depend on the processing

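Each group had 1 library and the labels number no replicates. Ratios within each sex are values with no test, and no fit over the mice with sex as a block was made. Leaving out the mixed-marker myeloid sub-cluster 0 and adding the mixed sub-cluster to the fibroblasts were chosen after seeing the data. Of 35 class ratios past the fold (20 fibroblast, 12 myeloid and the rest of mural Il34), those that remained past it in the same direction were 35 with called doublets removed, 34 with member and pathway genes kept in the clustering, 33 each with TMM scaling and log-normalised clustering, 31 with the mean of single-nucleus CPM, 30 in female nuclei and 29 with the pooled nucleus filter. In male nuclei 26 of 34 remained, without the 5 nuclei richest in a gene 31 of 34, with the mixed sub-cluster added 10 of 20 and without sub-cluster 0 11 of 12.

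Among ratios past the fold, those that changed sign were fibroblast Csf3r in cKO at 21 dpi, at -0.32 with the pooled filter and -0.26 in male nuclei, and whole-library ratios. In whole libraries cKO against Ctrl at 7 dpi was 0.79 for Csf1, 0.79 for Csf1r, 0.75 for Csf2ra, 0.42 for Csf2rb and 0.57 for Csf3r without neural classes. With the class makeup of Ctrl it was 0.41 for Csf1, 0.32 for Csf1r, 0.34 for Csf2ra and 0.070 for Csf3r, and Csf3r with ADWA11 at 21 dpi was -0.20. Ratios under the fold changed sign as well, such as whole-library Csf1r with ADWA11 at 21 dpi (0.18, and -0.65 with the makeup of Ctrl) and several of those that follow.

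For Csf1 in both classes and myeloid Csf1r, against Ctrl and between the Ctrl days, the ratios that moved by more than their counting interval follow. Of the other values, class shares included, 52 moved so in female and 47 in male nuclei, 16 with log-normalised clustering, 11 with the pooled filter and 0 with called doublets removed. Fibroblast Csf1 in cKO was 1.02 in female and 0.092 in male nuclei at 7 dpi and 0.94 in female nuclei at 21 dpi. With ADWA11 it was 0.54 in female nuclei and -0.054 with the mixed sub-cluster at 7 dpi and 0.35 in female nuclei at 21 dpi, and the Ctrl day ratio was 0.12 with the mixed sub-cluster. Myeloid Csf1 in cKO at 7 dpi was 0.32 with TMM, 0.60 with the pooled filter, 0.27 in male nuclei, 0.14 with genes kept and 0.33 without sub-cluster 0. At 21 dpi it was -0.37 with the pooled filter, -1.05 in female and 0.11 in male nuclei, -0.28 without the 5 richest nuclei and 0.37 without sub-cluster 0. With ADWA11 at 7 dpi it was -0.54 by mean nucleus, -0.19 with the pooled filter, -0.30 in female and -0.77 in male nuclei, -0.82 with genes kept and -0.074 without sub-cluster 0. At 21 dpi it was -2.49 with the pooled filter, -3.19 in male nuclei and -2.01 without sub-cluster 0. The Ctrl day ratio of Csf1 was -1.64 with TMM, -1.33 with the pooled filter, -1.83 in female and -1.06 in male nuclei, -1.69 with genes kept and -1.95 without sub-cluster 0.

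Myeloid Csf1r in cKO at 7 dpi was 0.27 with TMM, 0.45 by mean nucleus, 0.75 with the pooled filter, 0.52 in female and 0.19 in male nuclei and -0.22 without sub-cluster 0. At 21 dpi it was 0.43 by mean nucleus, 0.26 in female and 0.45 in male nuclei and 0.15 without sub-cluster 0. With ADWA11 at 7 dpi Csf1r was 0.35 with the pooled filter, 0.038 in female nuclei, -0.085 with genes kept and -0.087 without sub-cluster 0, and at 21 dpi -0.59 with TMM, -0.62 by mean nucleus, -0.46 in female and -0.79 in male nuclei, -0.76 with genes kept and -0.49 without sub-cluster 0. Its Ctrl day ratio was -0.24 with TMM, -0.21 by mean nucleus, 0.27 with the pooled filter, -0.083 in female nuclei and -0.41 without sub-cluster 0. With the pooled filter a myeloid sub-cluster of 2233 nuclei, 1664 of them of Ctrl at 7 dpi, was called mixed and left the class. With genes kept, a sub-cluster of 3187 nuclei, 1296 of them of Ctrl at 7 dpi, was left out likewise. Both settings thus also changed which nuclei form the myeloid class. The cause of the shifts was not tested.

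The share of all genes past the fold ran from 14.5 to 33.6% in fibroblasts and 18.5 to 29.8% in myeloid nuclei. With 2-fold it was 5.66 to 17.6% and 8.46 to 15.5%, and with no minimum of UMIs 33.3 to 51.3% and 41.5 to 46.8%. Counts of 2 to 15 UMIs, as for Csf2rb and Csf3r in the 332 fibroblasts of cKO at 7 dpi, and neutrophil levels at 7 dpi limit what can be read.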
